A study of Mus musculus with 10 samples.

Results

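The butyrylated and the acetylated form of lysine 5 of histone H4 (H4K5bu and H4K5ac) were compared in mouse spermatocytes through the places where each had been called enriched. The members were all islands, that is, stretches of enriched chromatin, of the H4K5bu and the H4K5ac list of spermatocytes on chromosomes 1 to 19: 37578 butyryl and 43505 acetyl islands, 81083 of the 301484 islands in the 8 lists of the series. Both lists came from chromatin immunoprecipitation followed by sequencing (ChIP-seq) on mononucleosomes of fractionated testis spermatocytes, strain Oncins France 1, with about 100 ug of mononucleosomes, 5 ug of antibody and 10 mM sodium butyrate in the buffer of either library. The acetyl antibody was a gift of a laboratory and the butyryl antibody a commercial one, so the 2 lists differ in the antibody's source as well as in the mark. Neither the age nor the number of the animals, nor the purity of the cell fraction, is given in the labels, and the fraction could not be checked against marker genes. There was 1 library per mark and 1 input library (nucleosomes before immunoprecipitation) for the stage, so the data hold no replicate spread to measure a difference by, and no p-value is given. Intervals are 95%; those of shares and folds cover counting error only, and those of medians the spread between regions.

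Spermatocytes are the male germ cells that pass through meiosis. The tail of histone H4 carries lysines that acetyltransferases modify, and acetylation there takes away the positive charge of the lysine and marks active promoters and enhancers. Butyrylation adds a longer, more hydrophobic chain to the same atom of the same lysine, so that 1 copy of the lysine carries either the acetyl or the butyryl group. Proteins with bromodomains, such as the testis protein Brdt, bind acetylated H4 tails, and the acyl group on lysine 5 bears on that binding.

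The lists were of similar extent. Butyryl islands covered 153.1 Mb and acetyl islands 148.5 Mb, with 7937840 and 8066787 ChIP reads and 2255617 and 2179548 reads of the same input library inside them. Pooled over all islands, ChIP reads scaled to the input library stood 4.18-fold above input for H4K5bu and 6.25-fold for H4K5ac. By the factors that scale the folds of each list, the H4K5bu library was 1.42 times as deep as the H4K5ac library. Depth therefore differs along with the mark, and their parts in any difference in the number, width or reach of islands cannot be told apart.

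Nearly all butyryl islands lay on acetylated chromatin, while more than 1 in 5 acetyl islands had no butyryl island. Of butyryl islands, 34551 (91.9%, 91.7 to 92.2) shared at least 1 bp with an acetyl island and 3027 were private to the list. Of acetyl islands, 34109 (78.4%, 78.0 to 78.8) were shared and 9396 private. In bases the lists were closer to each other: 115 Mb were common, 75.2% of the butyryl and 77.6% of the acetyl bases. The butyryl bases outside acetyl islands lay mostly at the flanks of shared islands, 30.3 Mb against 7.58 Mb in private islands. The acetyl bases outside butyryl islands were spread over both, 14.9 Mb in shared and 18.5 Mb in private islands. The acetyl list is the longer one. With only its 37578 islands of highest fold kept, 85.6% of butyryl and 83.55% of acetyl islands were shared, in the same order but with most of the gap gone.

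Private islands of either list were narrower, had fewer reads and had lower folds than the shared islands of the same list. Private acetyl islands had a median width of 1800 bp (quartiles 1200 and 2400) against 3000 bp (1800 and 4800) for shared ones. Private butyryl islands had a median width of 2200 bp (1600 and 3200) against 3200 bp (2200 and 5200). The median private acetyl island held 53 ChIP and 26 input reads, a median fold of 3.55, and the median shared one 151 and 40 reads and a fold of 6.33. The median private butyryl island held 75 ChIP and 38 input reads, with a median fold of 2.37, and the shared one 156 and 47 reads and a fold of 4.21. Private islands thus made up 21.6% of acetyl islands but held 7.46% of their ChIP reads, and 8.06% of butyryl islands with 3.15% of theirs. A fold of at least 5 was found in 2087 private acetyl islands (22.2%) and in 77 private butyryl islands (2.54%), against 64.5% and 36.6% of the shared islands of the same list.

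**Figure D1:**
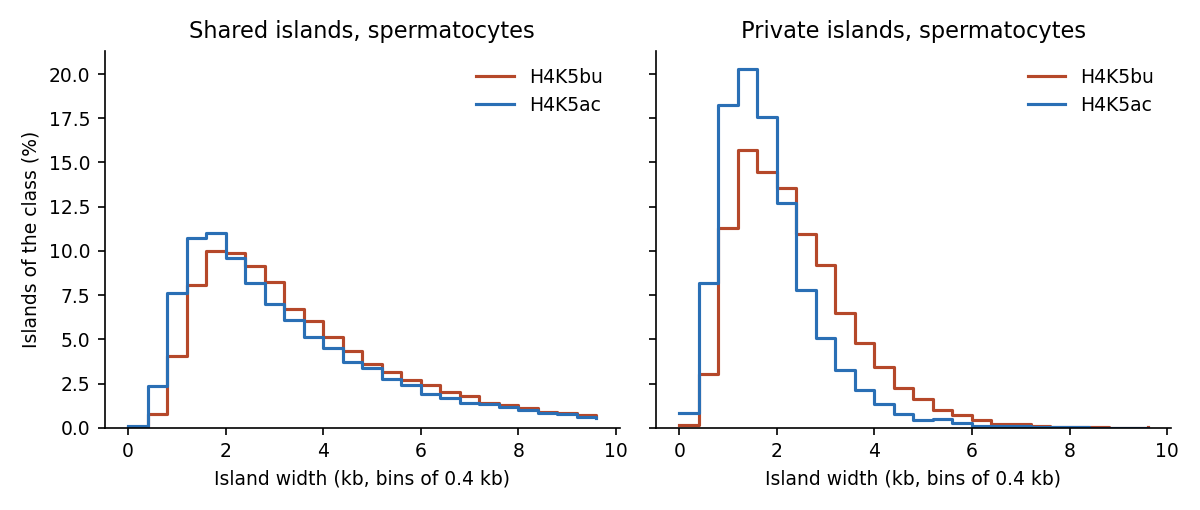
Percent of islands (vertical axis) by width in bins of 0.4 kb (horizontal axis, islands up to 10 kb) for shared islands on the left and private islands on the right, H4K5bu in red and H4K5ac in blue. Private islands pile up below 3 kb, with medians of 1800 bp for H4K5ac and 2200 bp for H4K5bu, while shared islands reach far beyond.

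Input reads differed between the classes as well. Private butyryl islands had a median of 16.9 input reads per kb and shared ones 14.2; the medians of acetyl islands were 15 and 13.9. Of the 1% of islands with the densest input, at least 26.3 reads per kb for H4K5bu and 27.5 for H4K5ac, 83 of 384 butyryl and 148 of 452 acetyl islands were private. These 148 islands held 8.50% of the ChIP and 21.1% of the input reads of private acetyl islands. Much of this lay in 1 island, chr9:2999801-3038400; without it the shares were 4.21% and 9.81%. The part of input density in whether an island was shared was not tested; without the densest 1% of each list the shares stayed at 91.9% and 78.3%.

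How often an island had a partner rose with its fold in both lists. Among the 25% of acetyl islands with the lowest fold (median 2.97), 52.9% (52.0 to 53.8) were shared, and in the following quartile groups 75.3%, 88.6% and 96.8%, the last with a median fold of 11.2. Among butyryl islands the quartile groups had 77.9% (77.0 to 78.7), 92.2%, 98.1% and 99.6% shared, at median folds from 2.31 to 6.94. Width acted in the same direction: 61.2% of the narrowest and 97.0% of the widest quartile group of acetyl islands were shared, and 85.4% and 98.6% of butyryl islands. Both held together. Of acetyl islands in the lowest quartile group by fold, 45.3% of those no wider than the median of the list and 67.1% of the wider ones were shared. Of butyryl islands wider than the median with a fold in the upper 2 quartile groups, 4720 and 5552 islands, none was private. In the highest quartile group by fold 352 acetyl islands and 40 butyryl islands remained without a partner, and 337 and 40 of them were no wider than the median. Fold, width and read number move together in these lists, and their separate parts in sharing cannot be told apart beyond these splits.

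**Figure D2:**
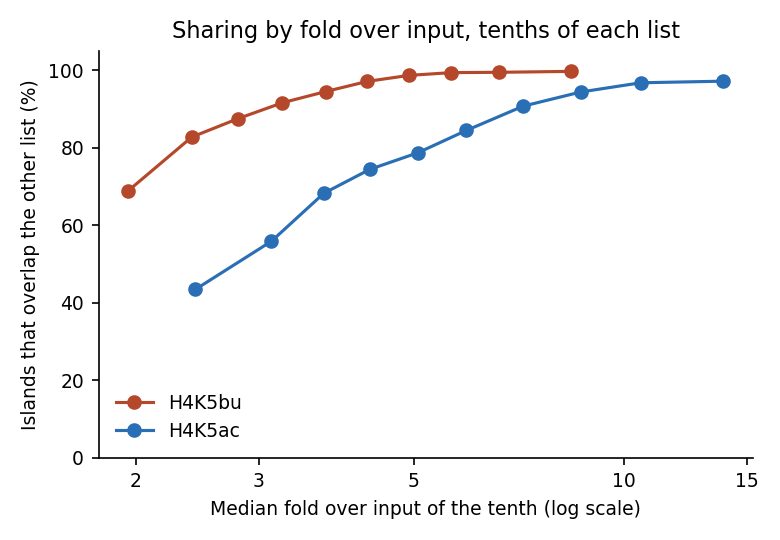
Percent of islands that overlap the other list (vertical axis) against the median fold over input (horizontal axis, log scale) for 10 groups of equal size per list, ranked by fold; red H4K5bu, blue H4K5ac. Both curves climb towards 100%, and at the low end the acetyl curve starts far below the butyryl curve.

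Private acetyl islands mostly lay more than 10 kb from a butyryl island. The median distance from a private acetyl island to the closest butyryl island was 18800 bp, with 7.45% of them within 2000 bp and 66.7% beyond 10 kb. Private butyryl islands were closer, with a median distance of 9000 bp to the nearest acetyl island, 16.25% of them within 2000 bp and 47.0% beyond 10 kb. The acetyl list that they were measured against holds more islands, 43505 against 37578. Distances from random places in the genome were not measured. On either side of the 1 bp rule, 97 butyryl and 101 acetyl islands were shared through 400 bp or less, with median folds of 2.97 and 4.57. Within 400 bp of an island of the other list but not touching it lay 44 private butyryl and 59 private acetyl islands, with median folds of 2.35 and 2.87.

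Where the marks met, they did so as a pair of islands. Overlapping islands formed 32826 shared regions with a median width of 3800 bp, and 30268 of these (92.2%) held exactly 1 island of each list. In 941 regions 1 butyryl island held several acetyl islands, and in 1358 regions 1 acetyl island held several butyryl islands; 259 regions had several of each. Of these compound regions, those with several butyryl islands under 1 acetyl island had the higher folds, medians of 5.06 for H4K5bu and 8.21 for H4K5ac. The breaks were short. Counted over all holding islands, 1725 gaps between butyryl islands lay inside 1 acetyl island, 55.5% of them of 800 bp, the shortest gap found between islands of a list. Inside butyryl islands lay 1283 gaps between acetyl islands, with 34.2% of 800 bp and quartiles of 800 and 1600 bp. The butyryl island that held the most acetyl islands, 6, lay at chr17:30699601-30767600 (mm9), and the acetyl island that held 4 butyryl islands at chr1:193215001-193225400.

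In one-to-one pairs the butyryl island was usually the wider. It was wider in 19104 pairs (63.1%, 62.6 to 63.7), the acetyl island in 8578 (28.3%, 27.8 to 28.9), and 2586 had the same width. Median widths were 3200 bp for butyryl and 2800 bp for acetyl, and the median ratio of widths was 1.14 (quartiles 0.936 and 1.43). The excess was found at both ends alike. At the left edge butyryl reached farther in 53.4% of pairs and acetyl in 27.8%; at the right edge the values were 53.0% and 27.8%. Edges coincided in 18.8% and 19.15% of pairs and were at most 1 step of the 200 bp grid apart in 43.2% and 43.1%. Where butyryl reached farther, the median overhang was 600 bp at either end, and where acetyl did, 400 bp. The reach at one end said little of the other: over the 30268 pairs the Pearson correlation of left and right reach was 0.038 and Spearman's 0.033, as a description across pairs that share both libraries.

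**Figure D3:**
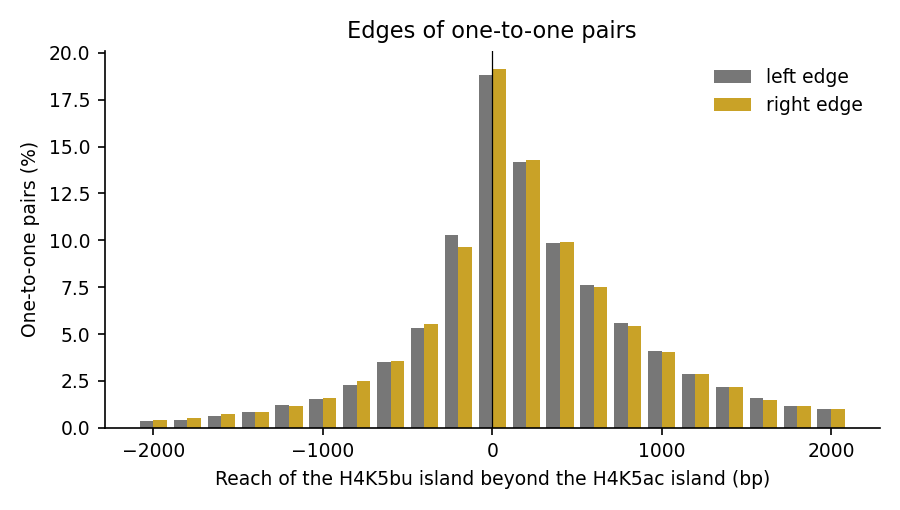
Percent of one-to-one pairs (vertical axis) by how far the H4K5bu island reaches beyond the H4K5ac island (horizontal axis, bp; negative where acetyl reaches farther; reaches beyond 2000 bp not drawn), left edge grey and right edge yellow. The bars of both edges nearly coincide and lean to the positive side, with medians of 200 bp.

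By nesting, the acetyl island lay inside the butyryl island in 14891 pairs (49.2%) and the butyryl island inside the acetyl island in 5665 (18.7%); 8602 pairs were staggered and 1110 (3.67%) had identical edges. The difference in width was largest around narrow acetyl islands. In the narrowest quartile group of acetyl islands, median 1400 bp, butyryl was wider in 78.9% of pairs by a median ratio of 1.40, and in the widest quartile group, median 6000 bp, in 52.1% by 1.03. Ranked by butyryl width the trend ran the other way, from 45.6% to 75.1%; in either ranking the width that orders the pairs is itself 1 side of the comparison. Ranked by the width of the whole region it ran from 59.8% to 64.97%. The longest single overhangs lay at chr4:149653401-149671800, where the butyryl island of 18400 bp passed the right end of an acetyl island of 4800 bp by 13000 bp, and at chr14:47682801-47699000, where the acetyl island of 16200 bp passed the left end of a butyryl island of 2200 bp by 9800 bp.

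The ratio of the butyryl to the acetyl fold over input was below 1 in most regions. Since each fold depends on how well its antibody enriches, the level of the ratio says nothing of how much of the histone carries either group. How the ratio varies among regions is described below. That variation is not free of the antibodies either, since where both folds are near 1 their ratio is near 1 by arithmetic. Over the 32826 shared regions the median ratio was -0.62 (log2; -0.63 to -0.62), with quartiles of -0.86 and -0.38. The butyryl fold was above the acetyl fold in 1948 regions (5.93%). The median folds were 4.19 for H4K5bu and 6.39 for H4K5ac.

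The pairs with identical edges gave the most direct reading, since in all 1110 the input count was the same in both lists and the ratio rests on ChIP reads alone. Their median ratio was -0.49 (-0.51 to -0.47), and 61 of them (5.5%) had a butyryl fold above the acetyl fold. Butyryl and acetyl reads per kb rose together across these pairs (Pearson's r of log2 densities 0.82, Spearman's 0.80; a description across pairs of the same 2 libraries). The standard deviation of the ratio was 0.29 where counting error alone gives 0.21. In the quartile group with the fewest reads, a median of 117.5 over both lists, the standard deviation was 0.28 and counting error 0.28; in the quartile group with the most reads, a median of 562, it was 0.20 and counting error 0.12. The spread thus exceeded counting error where reads were many and was near it where they were few. Counting error here takes reads as independent molecules, and with no replicate the part of noise between libraries in the spread was not tested.

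Unequal edges moved the ratio of folds. In pairs where the acetyl island lay inside the butyryl island the median ratio was -0.75, and where the butyryl island lay inside the acetyl island -0.39. A second measure, chosen after seeing the data, took excess reads (scaled ChIP minus input reads) in place of folds, to which bases at input level add nothing on average. By excess the order turned: the medians were -0.40 for acetyl inside butyryl and -0.86 for butyryl inside acetyl, with -0.60 for identical edges. Over all shared regions the median by excess was -0.57, and butyryl was the higher in 11.6% of regions. Over all shared regions, the comparisons by width, by strength and of extreme regions are given by both measures below. Those by input density and between chromosomes, neighbours and other ratios are given by folds alone. So are the splits of pairs with identical edges by width, strength and read number.

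Among shared regions, wide ones had a lower butyryl to acetyl ratio than narrow ones by folds and by excess reads. By folds the same held in pairs with identical edges. A ratio exists only where both lists had an island. Of acetyl islands, 61.2% of the narrowest and 97.0% of the widest quartile group were shared, and of butyryl islands 85.4% and 98.6%. All of these readings leave out the private islands, and the part of that selection in the fall was not tested. From the narrowest to the widest quartile group of shared regions, with median widths of 2000, 3200, 4800 and 8400 bp, the median ratio of folds was -0.46, -0.60, -0.68 and -0.71. The butyryl fold was above the acetyl fold in 11.6%, 7.02%, 3.68% and 1.45% of these quartile groups. The difference between the outer quartile groups was -0.24 (log2). It was -0.29 by excess reads and -0.31 among pairs with identical edges, whose quartile groups ran from -0.28 at 1200 bp to -0.59 at 4400 bp. Most of the fall lay among narrow regions: the upper 2 quartile groups differed by far less than the lower 2. The fall was also present with regions split into 3 classes of strength and 3 of width. In the weakest class by the mean log2 fold of both lists the ratio went from -0.38 in the narrowest to -0.65 in the widest regions, and in the strongest class from -0.66 to -0.75. By excess reads the same classes went from -0.26 to -0.94 and from -0.58 to -0.62, the last step being small and not in order (-0.65 at middle width). With only the upper 50% of each list by fold, the difference between the outer quartile groups was -0.14 (log2), and with at least 50 ChIP reads in each list -0.20. Narrow regions also had fewer reads; among pairs with identical edges the ratio went from -0.23 in the quartile group with the fewest reads to -0.61 in the one with the most, and width and read number were not separated there.

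**Figure D4:**
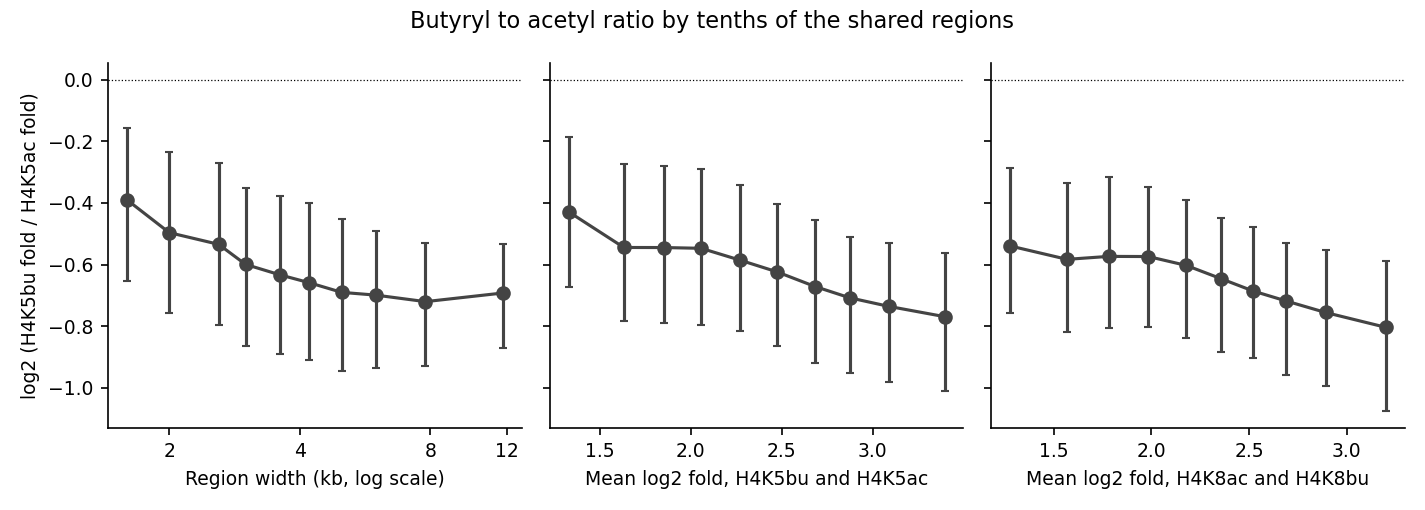
Median log2 ratio of the H4K5bu to the H4K5ac fold (vertical axis; bars are quartiles, the dotted line equal folds) in 10 groups of equal size of the shared regions by width in kb (log scale), by the mean log2 fold of both H4K5 lists, and by the mean log2 fold of the spermatocyte H4K8ac and H4K8bu islands in the region. From the lowest to the highest group the median is lower in all 3 panels, though not at every step: by width it levels off in the widest groups. The bars of neighbouring groups overlap widely.

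By strength the pattern depended on the measure. Here too the private islands are left out. By fold, 52.9% of the lowest and 96.8% of the highest quartile group of acetyl islands were shared, and 77.9% and 99.6% of butyryl islands. The part of that selection in the pattern was not tested. Ranked by the mean log2 fold of both lists, the quartile groups had median ratios of -0.49, -0.56, -0.66 and -0.75. Ranked by the acetyl fold the ratio fell from -0.37 to -0.85, and ranked by the butyryl fold it stayed between -0.65 and -0.58 with no order; a list's own fold is itself part of the ratio. The H4K8ac and H4K8bu libraries gave a ranking from other ChIP reads, but their folds share the input library with the ratio. Over the 28412 regions with islands of both, the quartile groups had -0.56, -0.59, -0.68 and -0.77. The ratio of folds also moved with input density. From the lowest to the highest quartile group by input reads per kb it was -0.77, -0.65, -0.58 and -0.49. In pairs with identical edges the input count cancels from the ratio, though not from the ranking. There the quartile groups by H4K8 folds had -0.40, -0.47, -0.53 and -0.64. By input reads per kb those pairs had -0.57, -0.545, -0.41 and -0.39. The part of the shared input in the ranking by H4K8 folds was not tested. By excess reads the weakest quartile group of shared regions, by mean fold or by H4K8 folds, no longer had the highest ratio. From the next group to the strongest the ratio still fell. Ranked by the acetyl fold, the ratio by excess fell at every step (-0.42, -0.52, -0.56 and -0.64). Ranked by the butyryl fold, the groups had -0.65, -0.45, -0.53 and -0.63 by excess. The quartile groups by mean fold then had -0.55, -0.46, -0.54 and -0.64, a difference of -0.097 (log2) between the outer ones in place of -0.255, and the quartile groups by H4K8 folds had -0.64, -0.50, -0.58 and -0.65. With lists of equal length the difference by folds was -0.15 (log2). Among pairs with identical edges the quartile groups by mean fold ran from -0.35 to -0.62. The scatter of the ratio by excess narrowed with strength, from a standard deviation of 0.68 in the weakest to 0.27 in the strongest quartile group by mean fold.

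Which regions lay far from the typical ratio depended on the measure. A ratio of folds at least 2 times above the median was found in 250 regions (0.762% of the 32826) and one at least 2 times below it in 346 (1.05%). Both groups were marked by unequal islands: regions with a high ratio of folds had a median butyryl extent of 1400 bp against 2200 bp of acetyl, and regions with a low one 4000 bp of butyryl against 2000 bp of acetyl. Input was low on the side of the higher fold, with medians of 18 input reads in the butyryl islands of the former and 18 in the acetyl islands of the latter. Fewer than 10 input reads in either list were found in 12.4% and 20.8% of these regions, against 1.23% of the others. By excess reads 882 regions (2.69%) lay at least 2 times above the median of that measure and 802 (2.44%) below it. Of the 250 regions high by folds, 37 were among the 882, a larger share than the 2.69% of all regions. Of the 346 low by folds, 5 were among the 802, a smaller share than the 2.44% of all regions. The widths were also the other way round: regions with a high ratio of excess reads had medians of 2800 bp of butyryl and 1200 bp of acetyl. The 250 regions had a median ratio of -0.14 by excess and the 346 one of -0.50, against -0.57 over all regions, so the 346 were not low by excess. Among the pairs with identical edges, 2 of 1110 (0.18%) had a ratio at least 2 times above their median and 0 (0%) one as far below it.

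Single pairs show how far unequal islands carry the ratio of folds. Among 17780 one-to-one pairs with at least 100 ChIP and 20 input reads in each list, the highest ratio of folds (log2 1.10) lay at chr17:59044401-59049200. Its butyryl island of 1800 bp had 125 ChIP over 20 input reads, a fold of 7.42 (4.60 to 12.6), and its acetyl island of 4800 bp had 158 over 77, a fold of 3.46 (2.62 to 4.61). The butyryl island covers the right part of a broader acetylated stretch, and by excess reads, 128.4 against 189.7, the log2 ratio was -0.56, close to the median of all regions. The lowest ratio of folds (-2.47) lay at chr9:59137201-59144800, with a butyryl island of 7600 bp and a fold of 4.77 (3.84 to 5.97) from 418 ChIP and 104 input reads. The acetyl island inside it spanned 3400 bp, with a fold of 26.35 (17.3 to 42.1) from 359 and 23 reads. By excess reads, 392 against 583, the log2 ratio was -0.57, so this pair was an extreme only by folds. The next lowest pairs, at chr14:31288801-31297000 (-2.30) and chr2:114479001-114484800 (-2.28), also had acetyl islands, of 2800 and 2600 bp, narrower than the butyryl islands of 8200 and 5400 bp, and ratios of -0.47 and -0.67 by excess.

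With edges identical, extremes by folds were milder. They kept their side of the median by excess reads, but with equal input counts in both lists this follows from arithmetic. It is no second check of these extremes. Among 555 pairs with identical edges and at least 100 ChIP reads in each list, the lowest ratio lay at chr19:6452001-6454000. There 115 butyryl and 193 acetyl reads over 28 input reads gave folds of 4.88 (3.20 to 7.66) and 11.6 (7.80 to 18.0). The ratio there was 0.419 (0.330 to 0.530) on the linear scale and the log2 ratio by excess reads -1.46. Low ratios were also found on chromosome 17, 0.464 (0.361 to 0.595) at chr17:29283601-29285600 and 0.482 (0.380 to 0.609) at chr17:25376001-25378400. The highest lay at chr13:66587401-66599400, with 745 butyryl and 424 acetyl reads over 514 input reads, folds of 1.72 and 1.39 and a ratio of 1.235 (1.095 to 1.395). This region had dense input and stood little above it by either mark. The other 2 highest ratios, 1.07 (0.883 to 1.30) and 1.04 (0.809 to 1.34), had intervals that include 1.

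The widest shared regions show long stretches with both marks side by side. At chr9:67539401-67619400, 80000 bp long, 6534 butyryl reads in 2 islands and 8702 acetyl reads in 1 island gave folds of 7.91 (7.40 to 8.47) and 15.6 (14.6 to 16.7), a log2 ratio of -0.98. At chr15:59076801-59155600, 1 island of each list spanned 78800 and 78000 bp with the same left edge, folds of 6.99 (6.53 to 7.48) and 11.9 (11.15 to 12.75) and a log2 ratio of -0.77. At chr17:27426601-27489200, which was among the 3 regions with the most ChIP reads, the islands of 62600 and 61600 bp also shared the left edge, with folds of 7.29 and 15.1 and a ratio of -1.05. The widest region of all, chr11:3019401-3107000, was of another kind: 23374 input reads lay in its butyryl islands, and its folds were 1.064 (1.045 to 1.084) and 1.125 (1.103 to 1.148).

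The private islands with the most reads were likewise places of deep input. For acetyl, chr9:2999801-3038400 had 26967 ChIP and 43012 input reads, a fold of 1.058 (1.042 to 1.075). For butyryl, chr5:15203801-15222400 had 1493 and 1601 reads and a fold of 1.11 (1.03 to 1.19). Private acetyl islands of high fold existed too. Of those with at least 100 ChIP reads, the highest lay at chr15:81522801-81525800 with 123 ChIP over 17 input reads, a fold of 12.2 (7.33 to 21.65), 19600 bp from the nearest butyryl island. The next were chr7:20107601-20111000 with a fold of 12.01 (7.30 to 20.9) and chr7:75095001-75100000 with 11.9 (7.73 to 19.1). All 3 held an H4K8bu island (folds 4.83, 7.48 and 8.29) and none an H4K8ac island. By the same minimum of reads, the private butyryl islands of highest fold reached 3.85 (2.64 to 5.73), at chr2:180479801-180482000, and 3.81 (2.56 to 5.82), at chr4:131995001-131998400.

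Lists that had no part in the split showed a difference between the private classes. H4K8bu of spermatocytes overlapped 95.6% of shared butyryl and 95.3% of shared acetyl islands. Of private acetyl islands it overlapped 59.2% (58.2 to 60.2), but of private butyryl islands 24.7% (23.1 to 26.3). H4K8ac overlapped 27.0% (26.1 to 27.9) of private acetyl and 17.1% (15.8 to 18.5) of private butyryl islands, against 87.1% and 87.6% of shared ones. For H4K8ac the order of the private classes turned with lists of equal length (31.15% of private acetyl and 34.5% of private butyryl islands) and with a required reciprocal overlap of 50% (44.85% and 58.7%). An H4K8bu island without an H4K8ac island was found at 38.3% of private acetyl islands and the reverse at 6.09%. The order was the same at shared acetyl (9.68% and 1.47%), private butyryl (17.15% and 9.61%) and shared butyryl islands (9.38% and 1.38%). The H4K8bu list is the longer of the 2 H4K8 lists (40695 and 35370 islands on these chromosomes), which moves with this order. The gap was also found among islands of 1000 to 3000 bp, where H4K8bu overlapped 58.5% of private acetyl and 26.6% of private butyryl islands. The gap for H4K8bu also depended on what counts as private. With lists of equal length the shares were 61.9% and 48.4%, and with a required reciprocal overlap of 50%, 70.3% and 69.0%. With only the upper 50% of each list by fold they were 86.8% and 85.5%, so that the gap was nearly gone under the last 2 settings. All of these settings, that of equal length included, also count as private some islands that touch the other list as deposited. With lists of equal length this holds for butyryl islands alone, since only the acetyl list was cut. The H4K8 lists share the input library of spermatocytes with both H4K5 lists.

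In round spermatids, the haploid cells that follow meiosis, with an input library of their own, the classes differed in the same order with the lists as deposited. These overlaps were not repeated with lists of equal length, reciprocal overlap or the upper 50% by fold. Whether the gaps hold under such settings was not tested. The H4K5ac list of round spermatids overlapped 53.5% (52.4 to 54.5) of private acetyl islands and 14.2% (13.0 to 15.5) of private butyryl islands, and 65.8% and 66.9% of the shared. The H4K5bu list of round spermatids overlapped 49.7% (48.7 to 50.8) of private acetyl islands, 20.2% (18.7 to 21.6) of private butyryl islands and 67.8% and 68.4% of the shared. Thus 4674 of the 9396 acetyl islands without an H4K5bu island in spermatocytes met an H4K5bu island of round spermatids. Of the 9396, 59.2% met an H4K8bu island in spermatocytes, so they were not free of butyryl calls. Among islands of 1000 to 3000 bp the order of shared and private acetyl islands turned: 52.7% of private and 43.25% of shared ones met an H4K5ac island of round spermatids. Fold split the private acetyl islands further. In the lowest quartile group by spermatocyte fold, 64.0% (62.7 to 65.3) of them met an H4K5bu island of round spermatids, and 59.4% of shared islands of that quartile group did. In the highest quartile group it was 10.5% (7.51 to 14.2) of 352 private islands against 85.6% of shared ones. None of the 4 lists overlapped 55.2% (53.4 to 57.0) of private butyryl islands, 17.9% (17.1 to 18.7) of private acetyl islands, and 2.27% and 2.39% of the shared.

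**Figure D5:**
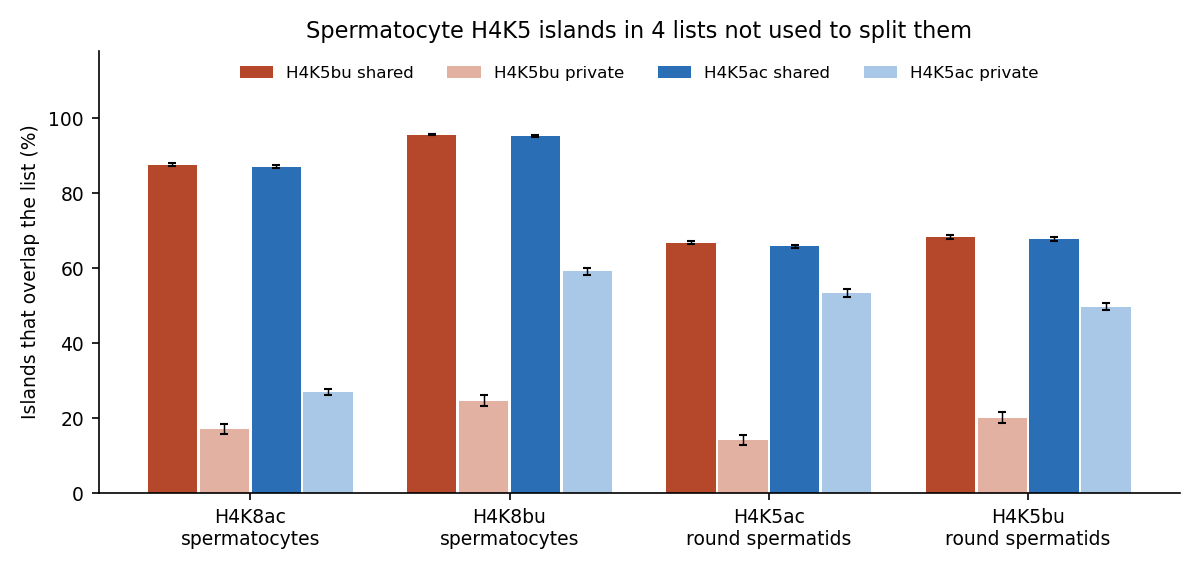
Percent of spermatocyte H4K5 islands (vertical axis) that overlap each of 4 other lists (horizontal axis), for shared and private islands of H4K5bu (dark and light red) and H4K5ac (dark and light blue); bars carry exact 95% intervals. With the lists as deposited and an overlap of 1 bp, private acetyl islands stand above private butyryl islands in each of the 4 lists (for H4K8ac the order turns with lists of equal length or a reciprocal overlap of 50%), with the widest gap for H4K5ac of round spermatids, 53.5% against 14.2%, and the narrowest for H4K8ac, 27.0% against 17.1%. The overlaps with the lists of round spermatids were not repeated under other settings.

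The butyryl to acetyl ratio at lysine 5 differed little between chromosomes, and correlations with neighbouring regions and with the ratio at lysine 8 were near 0. Medians of single chromosomes lay between -0.64 (chromosome 7) and -0.60 (chromosome 14), and the share of acetyl islands with a partner between 76.6% (chromosome 17) and 80.2% (chromosome 13). Between neighbouring shared regions less than 5 kb apart, 4279 pairs, the Pearson correlation of the ratio was 0.0031, and that of the mean log2 fold 0.082. Across the 28412 regions with both H4K8 marks, the ratio at lysine 5 and that at lysine 8 had a Pearson correlation of -0.031 and a Spearman correlation of -0.040. Against the ratio at lysine 5 in round spermatids, over 20537 regions, the values were 0.091 and 0.10. Among the 527 pairs with identical edges that were called for both marks in round spermatids they were 0.27 and 0.31. The quartile group of these pairs with the lowest spermatocyte ratio had a median of -0.48 in round spermatids and the quartile group with the highest -0.20. These are descriptions across regions that share libraries, and the part of counting error and of unequal edges in them was not tested.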

How the data were processed

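The authors' deposited files were lists of islands without a header, 1 per immunoprecipitated library, in mm9. Per the submitters' processing notes, CASAVA 1.8.2, Bowtie2 2.2.5, deepTools 1.5.11 and SICER were used; their settings and the SICER version are not given in the sources used here. Each list holds deposited counts of ChIP and input reads per island and a deposited fold, which is ChIP over input reads multiplied by a factor that is the same for every island of a list (1.187 for H4K5bu, 1.688 for H4K5ac). That factor scaled all folds computed here; 1 acetyl island had 0 input reads, set to 0.5. All edges were multiples of 200 bp.

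Overlap meant at least 1 shared bp. Overlapping islands were grouped into regions, and reads were summed per list. Shares and folds have exact (Clopper-Pearson, or conditional binomial) intervals, medians intervals from order statistics. Since no molecular identifiers are at hand, copies of 1 molecule may be counted repeatedly, which such intervals leave out. The grouping and ratio were tested on simulated lists. Quartile groups and the other ranked classes cut the ranks at equal numbers.

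Regions named in the text followed 1 rule: the extremes of the ratio among one-to-one and identical pairs with at least 100 ChIP reads (and 20 input reads for the former) in each list, the private islands with the most reads and highest fold, the widest and most read regions, the longest overhangs and the islands holding most others; the text gives those it needs. Members, lists and rule were chosen with earlier results of these data known. Islands on X, Y and mitochondrial DNA (496 butyryl, 786 acetyl) stayed outside the comparisons. No genome or gene table of mm9 was used, so genes and sequences are not analysed here. Python 3.11.15, NumPy 2.4.6, pandas 2.3.3 and SciPy 1.17.1 were used.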

Additional observations from a re-analysis of the deposited data

Results flagged for a closer look

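Islands on the sex chromosomes had no part in the comparisons, and both lists held some there. On X, 97.9% (96.2 to 98.99) of 476 butyryl islands overlapped an acetyl island, and 62.5% (59.0 to 66.0) of 755 acetyl islands overlapped a butyryl island. On Y the values were 100% (82.4 to 100) of 19 and 64.5% (45.4 to 80.8) of 31. No control list exists for these chromosomes; the values were picked out because they lie outside the main comparison.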

How the results depend on the processing

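No paired analysis was possible because there is 1 library per mark and no test. Of 89 values under other settings, for 15 results, 33 moved by less than their interval, 55 by more, and 1 went to about 0. The ratio of excess reads was chosen after seeing the data, as the edge-dependence of the ratio of folds had been seen.

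With a reciprocal overlap of 50%, 76.8% of butyryl and 66.3% of acetyl islands were shared, private butyryl islands had a median width of 2800 bp, H4K8ac met 58.7% and H4K8bu 69.0% of private butyryl islands (44.85% and 70.3% of private acetyl), the width ratio was 1.12 with butyryl wider in 60.9% of pairs, and the log2 ratio -0.61 with a width difference of -0.27. With the upper 50% of each list by fold, the shares were 90.5% and 75.9%, shared islands had median widths of 3800 bp (butyryl) and 3600 bp (acetyl) and private butyryl islands 1800 bp. H4K8ac then met 72.65% and H4K8bu 85.5% of private butyryl islands (73.2% and 86.8% of private acetyl), the width ratio was 1.125 with butyryl wider in 63.8%, and the log2 ratio -0.68 with differences of -0.14 by width and -0.23 by strength.

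With lists of equal length, the shares were 85.6% and 83.55%, private acetyl islands had a median width of 1600 bp, H4K8ac met 34.5% and H4K8bu 48.4% of private butyryl islands (31.15% and 61.9% of private acetyl), the width ratio was 1.15 with butyryl wider in 64.3%, and the log2 ratio -0.66 with differences of -0.23 by width and -0.15 by strength. With islands within 2000 bp joined, 92.7% of butyryl islands were shared, at a median width of 3600 bp, H4K8bu met 23.0% of private butyryl islands, the width ratio was 1.125 with butyryl wider in 62.5%, and the strength difference -0.24.

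With at least 50 ChIP reads, the width ratio was 1.12 with butyryl wider in 61.5%, the log2 ratio -0.64 and the differences -0.20 by width and -0.22 by strength. With identical edges the log2 ratio was -0.49 and the width difference -0.31. By excess reads the ratio was -0.57 and the differences -0.29 by width and -0.097 by strength. Strength taken as the acetyl fold gave -0.48, as H4K8 folds -0.21 and as the butyryl fold 0.0023 (-0.011 to 0.016), an interval that includes 0. Leaving out the densest 1% by input moved no result beyond its interval. For H4K8ac, the order of private acetyl and private butyryl islands turned with lists of equal length and with reciprocal overlap. Causes were not tested. With 1 library per mark, differences in depth, antibody and mark cannot be told apart.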
